A study of Homo sapiens with 18 samples.

Results

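siNT was compared with Mock after 24 h of poly(I:C) in EA.hy926, a human endothelial line made by fusing umbilical vein endothelial cells with the lung carcinoma line A549. Both groups were defined by the sample labels, with 3 libraries each, and the comparison used 6 of the 18 libraries of the series. Mock cells received the transfection reagent without siRNA and siNT cells a non-targeting siRNA at 10 nM, and all cells were kept in low serum before poly(I:C), a synthetic double-stranded RNA, was added at 1 μg/ml 48 h after transfection. The other 12 libraries were Mock and siNT before poly(I:C) (0 h) and cells with siRNA against ELMO1 (siELMO1) at 0 h and 24 h. Messenger RNA was sequenced, and the values are estimated counts per gene, of which 15167 of 62754 genes passed the filter on low counts. The labels do not say whether replicates were separate cultures, though the study's methods call them biological replicates. The p-values of the main test rest on the spread between libraries within groups, estimated over all 18 libraries without using the replicate number. In bulk RNA, fewer cells of a kind and less RNA per cell cannot be told apart.

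Double-stranded RNA is a sign of virus infection. It is sensed in endosomes by TLR3 and in the cytoplasm by RIG-I and MDA5, which signal through adaptors to IRF3 and IRF7, the transcription factors of interferon genes, and to NF-κB, which drives cytokine and chemokine genes. Secreted interferon then acts through JAK kinases, STAT2 and IRF9 on a second group of genes, the interferon-stimulated genes, many of which block virus replication. In endothelial cells the same signals raise chemokines and adhesion molecules that recruit leukocytes, and alter the genes that control clotting. A non-targeting siRNA is a small double-stranded RNA meant to match no transcript. The comparison of siNT with Mock shows what differs between cultures with and without it under the same stimulus. These cultures were not equally intact, as the study reports extensive cell death in siNT after poly(I:C) and much less in Mock. Its authors propose this death as the likely reason for the lower inflammatory transcripts in siNT. The libraries do not show how many cells were dying, and the part of cell death in the differences was not tested.

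The 6 libraries held 52.97 to 62.4 M estimated counts, and levels are CPM, counts scaled to 1 M counts of a library after TMM scaling. With no count, a level of up to 3 counts stays possible, which was 0.0497 to 0.0573 CPM in these libraries, and such limits cover counting error only. The mitochondrially encoded share was 1.11% to 1.204% of counts in Mock and 1.49% to 1.82% in siNT, and nuclear ribosomal RNA was under 0.01% in all 6. ELMO1 was at 1.52, 2.98 and 2.45 CPM in the Mock libraries and 3.38, 2.98 and 3.59 CPM in the siNT libraries, a log2 difference of 0.51 that did not pass (adjusted p = 0.086, edgeR). Of 14 endothelial markers 12 were tested, and CDH5, the cadherin of endothelial junctions, was at 536, 441 and 541 CPM in Mock against 497, 516 and 549 CPM in siNT. EMCN and CLDN5 did not pass the filter. Of 8 macrophage and leukocyte markers and 8 fibroblast and smooth muscle markers, 2 of each were tested, and the epithelial keratins KRT7 and KRT18 were present.

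The comparison called 3825 genes higher in siNT (25.2% of genes tested) and 3782 lower (24.9%) at a Benjamini-Hochberg adjusted p under 0.05 in edgeR's quasi-likelihood test, with a median log2 fold change of −0.0001 over all genes. Calls in each gene list below are to be read beside these shares. Beyond a 2-fold difference, 438 genes were higher (2.89%) and 581 lower (3.83%). Of the 581 lower genes 408 were protein coding and 150 were lncRNA, and of the 438 higher genes 328 and 83. The libraries of the groups did not overlap for 566 of the 581 and 418 of the 438, against 57.4% of all genes tested. These genes were chosen by their difference in the same libraries, so this follows in large part from the choice and is a description. The number of genes lower by over 2-fold was 517 to 676 with 1 library left out. An exact permutation test of 3 against 3 libraries cannot give a p below 0.1, so the p-values are the model's.

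**Figure D1:**
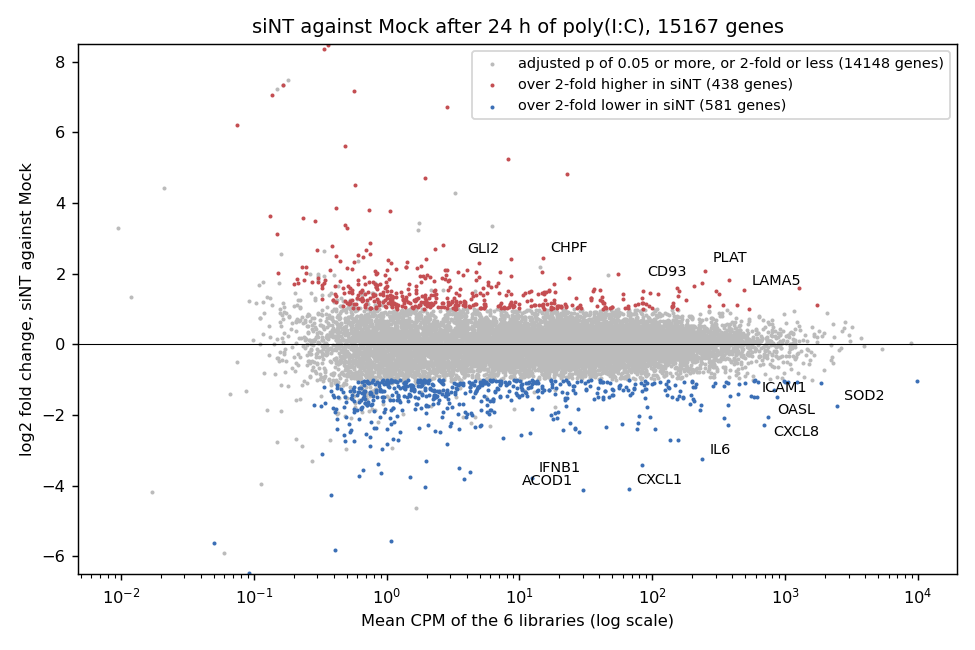
Log2 fold change of siNT against Mock after 24 h of poly(I:C) (vertical axis) against the mean CPM of the 6 libraries (horizontal axis, log scale), 1 point per gene. The 438 red genes were over 2-fold higher and the 581 blue genes over 2-fold lower with adjusted p under 0.05, and CXCL1, IFNB1, IL6 and CXCL8 lie below −2 while PLAT, CD93 and LAMA5 lie above 1; 12 genes lie beyond the axis.

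Of the 12 genes with the largest decreases under the naming rule (a symbol, at least 5 CPM and no overlap of libraries), the first 5 encode cytokines, a chemokine or an enzyme of inflammation. ACOD1 (ENSG00000102794.11, chromosome 13, 76948511 to 76958638 on GRCh38), the enzyme that makes itaconate, was at 56.7, 57.1 and 57.9 CPM in Mock against 2.94, 3.25 and 3.62 CPM in siNT, a log2 fold change of −4.13 with an SE of 0.19 (adjusted p = 2.5e-10, edgeR). CXCL1 (ENSG00000163739.5, chromosome 4, 73869393 to 73871308), a neutrophil chemoattractant, was at 128, 113 and 139.8 CPM in Mock against 7.28, 6.84 and 8.00 CPM in siNT, a log2 fold change of −4.10 with an SE of 0.21 (adjusted p = 1.2e-10, edgeR). For both genes the siNT libraries lay close together and far below the lowest Mock library. IFNB1 (ENSG00000171855.7, chromosome 9, 21077104 to 21077942), interferon-beta, was at 20.4, 21.3 and 27.5 CPM in Mock against 1.70, 1.43 and 1.91 CPM in siNT, a log2 fold change of −3.78 with an SE of 0.32 (adjusted p = 4.9e-07, edgeR). CSF3, the granulocyte growth factor, was at 151, 139 and 172 CPM in Mock against 12.7, 14.7 and 16.0 CPM in siNT (−3.41, adjusted p = 3.1e-09, edgeR). IL6 (ENSG00000136244.12, chromosome 7, 22725884 to 22732002), the cytokine of the acute-phase response, was at 414, 445 and 424 CPM in Mock against 44.3, 47.1 and 42.9 CPM in siNT, a log2 fold change of −3.26 with an SE of 0.15 (adjusted p = 4.3e-11, edgeR). IL6-AS1 lies on the strand opposite to IL6. The library kit marked strand, but whether the counting used it is not given in the sources used here, so the level of a gene with an antisense partner is uncertain.

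The promoters of some of these genes are shown because the genes moved together and some hold known binding letters. The 250 bases before the RefSeq start (GRCh38.p14) were searched on both strands for GGANTTTCC, letters taken from well known NF-κB sites of such promoters, and for GAAANNGAA, the core of the interferon-stimulated response element (ISRE). The letters were chosen knowing these genes, so a match is a description and not a test. The first start that RefSeq lists for a symbol was used, which differs from the start in the annotation for CXCL8, IL6 and, by 1 base, CXCL2. Capitals mark the matches, and each line runs 5′ to 3′ on the strand of the gene.
CXCL1 (chr4:73869143-73869392, plus strand): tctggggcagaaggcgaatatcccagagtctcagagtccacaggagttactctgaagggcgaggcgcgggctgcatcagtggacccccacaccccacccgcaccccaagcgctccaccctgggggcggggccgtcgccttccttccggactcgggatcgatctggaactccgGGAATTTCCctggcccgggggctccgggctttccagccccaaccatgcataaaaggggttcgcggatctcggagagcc
CXCL2 (chr4:74099196-74099445, minus strand): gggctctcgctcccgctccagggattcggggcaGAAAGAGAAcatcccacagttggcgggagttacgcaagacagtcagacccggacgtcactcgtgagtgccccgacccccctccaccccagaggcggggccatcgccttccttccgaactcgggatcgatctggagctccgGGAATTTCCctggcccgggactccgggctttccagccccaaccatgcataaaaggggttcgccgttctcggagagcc
CXCL8 (chr4:73740319-73740568, plus strand): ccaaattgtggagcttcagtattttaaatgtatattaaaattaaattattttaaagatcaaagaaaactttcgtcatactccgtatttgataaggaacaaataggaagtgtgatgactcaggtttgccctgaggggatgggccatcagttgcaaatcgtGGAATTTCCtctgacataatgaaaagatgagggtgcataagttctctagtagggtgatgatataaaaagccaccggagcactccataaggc
IL6 (chr7:22726950-22727199, plus strand): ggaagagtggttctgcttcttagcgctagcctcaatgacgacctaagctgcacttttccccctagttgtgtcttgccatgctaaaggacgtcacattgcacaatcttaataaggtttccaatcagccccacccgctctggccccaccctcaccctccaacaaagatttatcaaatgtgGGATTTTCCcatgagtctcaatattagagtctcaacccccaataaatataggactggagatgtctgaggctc
IFNB1 (chr9:21077943-21078192, minus strand): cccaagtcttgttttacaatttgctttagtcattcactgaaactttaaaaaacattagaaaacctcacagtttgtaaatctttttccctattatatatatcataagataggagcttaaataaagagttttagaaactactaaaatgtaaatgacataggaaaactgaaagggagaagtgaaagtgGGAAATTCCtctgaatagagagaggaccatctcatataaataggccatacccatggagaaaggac
HERC5 (chr4:88456869-88457118, plus strand): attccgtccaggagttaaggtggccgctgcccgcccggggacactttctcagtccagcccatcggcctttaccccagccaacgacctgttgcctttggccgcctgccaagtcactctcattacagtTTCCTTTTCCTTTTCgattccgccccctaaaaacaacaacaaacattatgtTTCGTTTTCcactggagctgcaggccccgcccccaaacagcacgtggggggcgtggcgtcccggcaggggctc
CXCL1, CXCL8, IL6 and IFNB1 each held 1 NF-κB match, which began 78, 91, 72 and 65 bases before the start. CXCL2 held 1 of each motif, 77 and 217 bases before it, and HERC5 held 3 ISRE matches on the other strand, of which those 124 and 118 bases before the start overlap, and no NF-κB match. Among 27305 RefSeq promoters 1.47% held the NF-κB letters and 7.06% the ISRE letters, and among the 10689 tested genes with a promoter 1.52% and 5.75%. Of the genes lower by over 2-fold, 377 had a promoter, of which 19 (5.04%) held the NF-κB letters and 41 (10.9%) the ISRE letters. Of those higher by over 2-fold, 263 had a promoter, of which 1 (0.38%) held the former and 13 (4.94%) the latter. All 6 chemokines of the CXC list with a promoter held the NF-κB letters, and 22 of the 38 interferon-stimulated effectors with a promoter (57.9%) held the ISRE letters.

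Chemokines, the secreted proteins that guide leukocytes, were lower in siNT as a family. Of 12 members of the CXC list 7 were tested and 6 were lower, all by over 2-fold, with a median log2 fold change of −2.33 at 24 h and 0.40 at 0 h. CXCL8 (ENSG00000169429.12, chromosome 4, 73740519 to 73743716), interleukin-8, was at 1202, 1116 and 1138 CPM in Mock against 260.1, 243 and 207 CPM in siNT, a log2 fold change of −2.28 with an SE of 0.11 (adjusted p = 4.8e-11, edgeR). CXCL2 and CXCL3, which share the neutrophil receptor of CXCL1, went from 128 to 24.3 CPM and from 44.2 to 8.40 CPM, with log2 fold changes of −2.40 and −2.39. CXCL10 and CXCL11, which attract T cells and are induced by interferon, had log2 fold changes of −1.95 and −2.33. CXCL16 was the exception, with 2.30, 1.96 and 2.79 CPM in Mock against 2.56, 2.68 and 2.56 CPM in siNT (adjusted p = 0.77, edgeR). All 5 CC chemokines that were tested, of 8 listed, were lower, with a median of −1.68. CCL5, which attracts T cells and monocytes, was at 167, 141 and 221 CPM in Mock against 26.7, 27.4 and 46.2 CPM in siNT (−2.40, adjusted p = 6.9e-07, edgeR). CCL2, the monocyte chemoattractant, was at 293, 242 and 343 CPM in Mock against 86.4, 82.1 and 106 CPM in siNT (−1.68, adjusted p = 7.8e-09, edgeR). Replicate 3 was the highest library of its own group for CCL5, CCL2 and CXCL11 in both groups, and the groups did not overlap for any of the 3. CCL4, CCL20 and CCL3 had log2 fold changes of −2.35, −1.30 and −1.25, the last with an adjusted p of 0.46 in DESeq2.

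Of 14 members of the list of the IL6 family, colony-stimulating factors and other cytokines, 6 were lower and 3 higher (24.9% and 25.2% of all genes tested), with a median of −0.41. Besides IL6 and CSF3, CSF2 was at 10.8, 4.37 and 10.4 CPM in Mock against 1.85, 1.59 and 1.82 CPM in siNT (−2.28), and IL12A, a subunit of interleukin-12, fell from 20.4 to 7.29 CPM (−1.49). CSF1, the macrophage growth factor, was at 68.4, 66.8 and 68.4 CPM in Mock against 64.3, 67.0 and 79.1 CPM in siNT and was not called (adjusted p = 0.62, edgeR). IL11 was higher, at 3.83 ± 0.607 against 1.89 ± 0.523 CPM (SD, n = 3), a log2 fold change of 1.02 (adjusted p = 0.0025, edgeR). IL6ST, the shared receptor chain of the family, was higher by 0.61 on the log2 scale (adjusted p = 5.1e-07, edgeR).

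In the interleukin-1 family, IL1B was higher in siNT. IL1B (ENSG00000125538.12, chromosome 2, 112829751 to 112836816), the inflammasome cytokine, was at 132, 125 and 124 CPM in Mock against 227, 230.2 and 171 CPM in siNT, every siNT library above every Mock library and a log2 fold change of 0.72 with an SE of 0.08 (adjusted p = 1.5e-06, edgeR). IL1A was at 75.7, 70.4 and 66.2 CPM in Mock against 72.9, 68.7 and 65.1 CPM in siNT and was not called (−0.04, adjusted p = 0.68, edgeR). IL1RAP, the receptor accessory chain, was higher by 0.77 (adjusted p = 6.9e-07, edgeR), and CASP1, the protease that cleaves the IL1B precursor, was lower, with a log2 fold change of −0.42 (adjusted p = 0.00019, edgeR). Of the 7 members tested of 9, 2 were higher and 2 lower, near the shares over all genes tested (25.2% and 24.9%). The other lower member, IL33, was at 0.902 ± 0.304 CPM in Mock against 0.160 ± 0.153 CPM in siNT, and its call was lost under 2 other filters on low counts and when any of 4 single libraries was left out (adjusted p up to 0.098, edgeR). At 0 h IL1B was already higher in siNT, at 9.96 ± 0.319 against 2.80 ± 0.247 CPM, a log2 difference of 1.83 (adjusted p = 2.9e-10, edgeR). The fold difference was thus larger before poly(I:C) than after it (−1.11 on the log2 scale for 24 h minus 0 h, adjusted p = 8.6e-06, edgeR), while the gap in CPM was wider at 24 h. The poly(I:C) response of IL1B, 24 h against 0 h, was 5.50 in Mock and 4.39 in siNT on the log2 scale. For IL6 these responses were 8.24 and 4.96, and for CXCL8 6.20 and 3.52. The responses share the 24 h libraries with the comparison and are given as values.

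**Figure D2:**
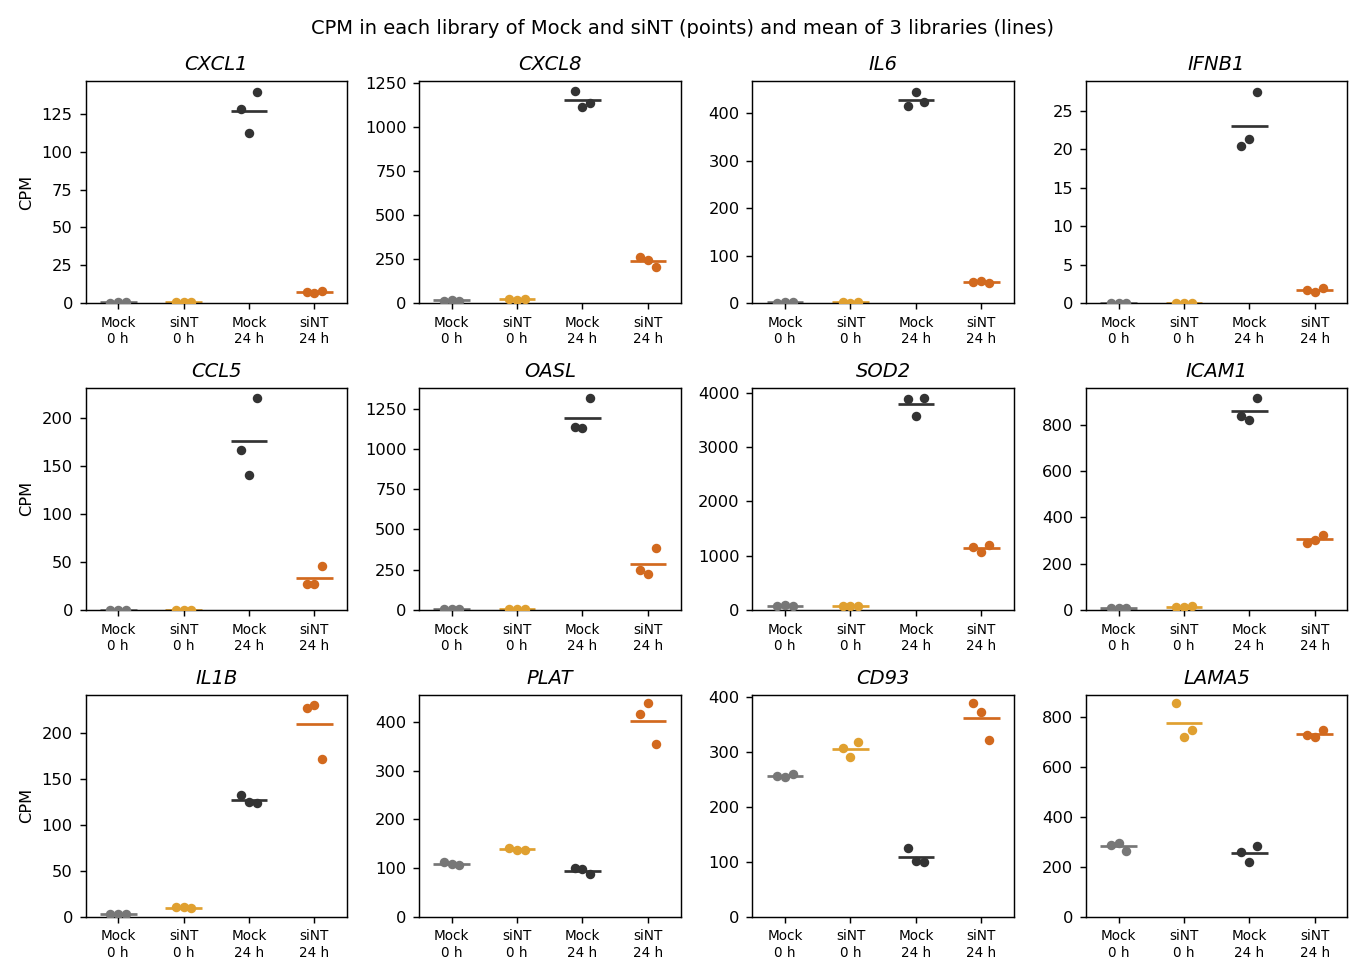
CPM (vertical axis, from 0) of 12 genes in every Mock and siNT library at 0 h and 24 h, with a line at the mean of 3 libraries. The 24 h Mock points of CXCL1, CXCL8, IL6, IFNB1, CCL5, OASL, SOD2 and ICAM1 lie above all siNT points, the reverse holds for IL1B, PLAT, CD93 and LAMA5, and LAMA5 lies higher in siNT at 0 h too.

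Several sensors of double-stranded RNA were lower in siNT. Of 15 sensors and adaptors 8 were lower and 2 higher, against 24.9% and 25.2% of all genes tested, with a median of −0.24. TLR3 (ENSG00000164342.14, chromosome 4, 186068911 to 186088073), the endosomal sensor, was at 145, 136 and 162 CPM in Mock against 115, 110.3 and 149 CPM in siNT, and its log2 fold change of −0.24, with an SE of 0.11, did not pass (adjusted p = 0.065, edgeR). With the replicate number as a block, TLR3 was called lower, at −0.25 in the 6 libraries (adjusted p = 0.0041, edgeR) and −0.25 in all 18 (adjusted p = 0.021, edgeR). Over all alternatives the adjusted p of TLR3 ran from 0.0027 to 0.27. RIGI, the sensor RIG-I, was at 1224, 1150.1 and 1346 CPM in Mock against 612, 522 and 784 CPM in siNT (−0.96, adjusted p = 1.6e-06, edgeR). IFIH1, the sensor MDA5, and DHX58, their regulator LGP2, were lower, with log2 fold changes of −0.62 and −1.29. Among the adaptors and kinases, MAVS, which carries the signal of RIG-I and MDA5 on mitochondria, was higher, at 188, 172 and 163 CPM in Mock against 252, 259 and 226 CPM in siNT (0.49, adjusted p = 5.7e-06, edgeR). TICAM1, the adaptor of TLR3, was at 59.4 ± 3.30 CPM in Mock against 52.2 ± 1.81 CPM in siNT (−0.19, adjusted p = 0.025, edgeR). TBK1, the kinase of IRF3, and IRF3 itself were not called, with log2 values of 0.05 and −0.03. EIF2AK2, the kinase PKR, was higher by 0.16 (adjusted p = 0.042, edgeR).

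The transcripts of IFNB1 and IFNL1 were lower in siNT. IFNL1, a type III interferon, was at 7.75, 7.59 and 8.29 CPM in Mock against 0.459, 0.679 and 0.770 CPM in siNT (−3.62, adjusted p = 9.5e-07, edgeR), and with IFNB1 it made up the 2 lower members of the 8 tested of 12, a share near the 24.9% of all genes, with a list median of −0.01. IFNE, interferon-epsilon, was at 1.09, 0.696 and 1.44 CPM in Mock against 1.47, 1.63 and 2.07 CPM in siNT and did not pass (0.68, adjusted p = 0.10, edgeR). IFNAR1, a receptor chain for interferon-beta, was higher by 0.47 (adjusted p = 6.2e-06, edgeR), and IFNAR2, IFNGR1, IFNGR2 and IL10RB had log2 values between −0.07 and 0.10 and were not called. IFNA1, IFNL2, IFNL3 and IFNLR1 did not pass the filter. TNF, tumour necrosis factor, was at 3.37, 1.72 and 3.22 CPM in Mock against 0.210, 0 and 0.403 CPM in siNT, which held 11, 0 and 23 counts, and its log2 fold change of −3.74 (adjusted p = 0.00069, edgeR) rests on few counts. IFNB1, IFNL1 and TNF had no count in any Mock or siNT library at 0 h. Of 14 IRF, STAT, JAK and SOCS genes tested of 16, 7 were lower and 1 higher, with a median of −0.19. IRF7 (ENSG00000185507.21, chromosome 11, 612553 to 615983), a transcription factor that induces interferon genes, was at 340.0, 344 and 370.1 CPM in Mock against 189, 183 and 232 CPM in siNT (−0.80, adjusted p = 8.7e-07, edgeR). STAT2 fell from 548 to 386 CPM (−0.51), IRF1 from 322 to 229.6 CPM (−0.49) and USP18, which restrains interferon signalling, from 206 to 136 CPM (−0.60). IRF9 and JAK1 were not called (0.06 and −0.06).

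Interferon-stimulated genes were lower in siNT in nearly every case. Of 48 antiviral effectors 46 were tested, and 42 were lower and 1 higher, with a median of −0.56 at 24 h against 0.25 at 0 h. The range went from −2.06 for OASL to 0.41 for IFITM2. OASL, which promotes RIG-I signalling, was at 1139, 1133 and 1315 CPM in Mock against 251, 225 and 382 CPM in siNT, a log2 fold change of −2.06 with an SE of 0.17 (adjusted p = 2.8e-08, edgeR). RSAD2, the antiviral protein viperin, was at 378, 317 and 379.9 CPM in Mock against 96.3, 90.3 and 143 CPM in siNT (−1.71, adjusted p = 2.0e-07, edgeR). For both genes all 3 siNT libraries lay under the lowest Mock library, and replicate 3 was the highest siNT library for both. HERC5, the ligase for ISG15, and BST2, the surface protein tetherin, fell by 1.13 and 1.13 on the log2 scale, while ISG15 itself fell from 762 to 381 CPM. IFIT1, IFIT2 and IFIT3, which bind viral RNA, had log2 fold changes of −0.49, −1.08 and −0.93, and OAS1, OAS2 and OAS3, which activate RNase L, −0.30, −0.52 and −0.43. IFI27 was at 527, 485 and 566 CPM in Mock against 422, 387 and 483 CPM in siNT and was not called (adjusted p = 0.10, edgeR), but it was called with the replicate block in the 6 libraries (−0.29, adjusted p = 0.00051, edgeR). CMPK2 and EPSTI1 were not tested here.

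The guanylate-binding proteins, GTPases that attack microbes inside cells, were lower in 5 of 6 cases, with a median of −0.97. At 0 h 4 were called higher in siNT and the median was 1.02, which rests in part on few counts. There GBP4, GBP5 and GBP7 had means of 0.0408, 0.0984 and 0 CPM in Mock and 0.0902, 0.0992 and 0.0364 CPM in siNT. GBP5 was at 91.8, 98.3 and 102 CPM in Mock against 18.6, 16.4 and 25.9 CPM in siNT (−2.26, adjusted p = 1.7e-07, edgeR). GBP1 was at 587, 615 and 648 CPM in Mock against 248, 242 and 354 CPM in siNT (−1.13, adjusted p = 3.1e-07, edgeR), while at 0 h it was higher in siNT by 0.83 (adjusted p = 7.5e-05, edgeR). GBP4 had a log2 fold change of −1.32 (adjusted p = 0.00010, edgeR), with an adjusted p of 0.073 in DESeq2. Of the 17 genes of antigen presentation and the immunoproteasome 15 were lower and 0 higher, none by over 2-fold, with a median of −0.45. HLA-E, a ligand of natural killer cell receptors, fell from 653 to 369.5 CPM (−0.82), and the immunoproteasome subunits PSMB8, PSMB9 and PSMB10 had log2 values of −0.58, −0.54 and −0.62. TAPBP, which loads peptides on HLA, was at 265, 253 and 325 CPM in Mock against 264, 287 and 323 CPM in siNT and was not called. HLA genes are near-identical in parts, and how reads were divided among them is uncertain.

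Most NF-κB genes and their feedback inhibitors were lower. Of 20 members 15 were lower and 3 higher, with a median of −0.51 at 24 h and 0.11 at 0 h. NFKBIZ (ENSG00000144802.11, chromosome 3, 101827991 to 101861022), the nuclear cofactor needed for IL6 expression, was at 269, 256 and 289 CPM in Mock against 35.6, 39.997 and 48.8 CPM in siNT, a log2 fold change of −2.71 with an SE of 0.11 (adjusted p = 1.3e-11, edgeR). TRAF1 was at 282, 291 and 328 CPM in Mock against 96.5, 92.3 and 118 CPM in siNT (−1.56), against 1.31 at 0 h (adjusted p = 7.5e-06, edgeR). The inhibitors TNFAIP3 and NFKBIA fell from 533 to 316 CPM and from 574 to 364 CPM, and the subunits NFKB1, NFKB2, RELA, RELB and REL had log2 fold changes of −0.64, −0.49, −0.48, −0.72 and −0.54. NFKBIE, TNIP2 and CHUK were higher, by 0.59, 0.28 and 0.32. Of 7 adhesion and immune surface molecules tested of 9, 4 were lower and 2 higher. ICAM1, the leukocyte adhesion molecule, was at 839.6, 821 and 915 CPM in Mock against 289, 303 and 326 CPM in siNT (−1.49, adjusted p = 4.8e-11, edgeR), while SELP, P-selectin, was higher, at 3.43, 1.13 and 1.11 CPM in Mock against 5.12, 3.54 and 4.36 CPM in siNT (1.21). VCAM1 and SELE did not pass the filter. Of 12 enzymes of inflammation 9 were lower and 1 higher, with a median of −1.21. PTGS2, the cyclooxygenase COX-2, was at 224, 228 and 249 CPM in Mock against 36.2, 34.6 and 35.9 CPM in siNT (−2.72), and SOD2, the mitochondrial superoxide dismutase, at 3889.6, 3569 and 3901 and 1163, 1071 and 1192 CPM (−1.73). PTGES, which acts after COX-2 in prostaglandin E2 synthesis, was the higher member, at 0.438, 0.199 and 0.856 CPM in Mock against 2.47, 2.09 and 2.33 CPM in siNT (2.20, adjusted p = 0.00079, edgeR).

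Of 28 death receptors, ligands, caspases and their regulators tested of 30, 12 were lower and 8 higher, against 24.9% and 25.2% of all genes, with a median of −0.08. The TNF receptor TNFRSF1A was higher, from 121 to 193 CPM (0.67), as were the TRAIL receptor TNFRSF10A, from 41.8 to 63.1 CPM (0.59), and FAS (0.40). The ligand TNFSF10, TRAIL, was lower, at 69.0, 62.8 and 100.3 CPM in Mock against 27.8, 22.7 and 52.7 CPM in siNT (−1.17, adjusted p = 0.0036, edgeR), though not in DESeq2 (adjusted p = 0.062). CASP8 (ENSG00000064012.24, chromosome 2, 201233443 to 201361836), the initiator caspase, was at 115, 107 and 117 CPM in Mock against 106, 104.7 and 122 CPM in siNT and the groups overlapped (−0.02, SE 0.06, adjusted p = 0.78, edgeR). CFLAR (ENSG00000003402.21, chromosome 2, 201116154 to 201176687), the inhibitor of caspase-8 activation known as c-FLIP, was at 226, 221 and 249.8 CPM in Mock against 108, 99.2 and 128 CPM in siNT (−1.06, adjusted p = 2.4e-07, edgeR), and BIRC3 fell from 160.1 to 93.1 CPM (−0.78). CFLAR-AS1 lies on the strand opposite to CFLAR.

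The transcripts of CFLAR, whose long and short proteins differ, took other shares of its counts in the 2 groups. The 10-exon transcript CFLAR-201 took 39.1%, 34.0% and 38.4% of CFLAR counts in Mock and 50.1%, 53.6% and 44.3% in siNT. The 5-exon transcripts CFLAR-205 and CFLAR-211 took 35.5% ± 1.38 and 16.6% ± 2.02 in Mock and 23.7% ± 3.92 and 11.7% ± 1.17 in siNT (SD, n = 3). The siNT libraries lay outside the Mock range for all 3 transcripts. CFLAR-205 held 4061, 4932 and 5161 estimated counts in Mock and 1326, 1103 and 2027 in siNT. StringTie divides shared reads among transcripts by a model, and the shares are given as values with no test. BCL2L1 (ENSG00000171552.14, chromosome 20, 31664452 to 31723989), the survival protein BCL-XL, was at 300.5, 286 and 303 CPM in Mock against 249.5, 254 and 251 CPM in siNT (−0.24, adjusted p = 6.3e-05, edgeR). Its main transcript BCL2L1-201 took 45.1%, 54.9% and 49.9% of counts in Mock and a mean of 47.7% (SD 4.53, n = 3) in siNT, with overlapping libraries. At 0 h its log2 difference was −0.81 (adjusted p = 2.2e-11, edgeR), and the change of the difference with time was 0.58 (adjusted p = 5.3e-07, edgeR). Of the 16 BCL2 family members tested of 18, 5 were lower and 6 higher, against 24.9% and 25.2% of all genes tested. PMAIP1, the death-promoting protein NOXA, was at 567, 523 and 599.8 CPM in Mock against 197, 184 and 236 CPM in siNT (−1.45), and BBC3, PUMA, at 81.8, 69.8 and 85.3 and 31.2, 33.9 and 40.9 CPM (−1.16). MCL1 and BAK1 were higher by 0.16 and 0.43, and BAX was not called (adjusted p = 0.49, edgeR).

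Stress genes of the endoplasmic reticulum and of amino acid supply were mostly lower. Of 17 ATF4 and amino acid stress genes tested of 19, 14 were lower, 10 of them by over 2-fold, and 1 was higher, with a median of −1.06 at 24 h and −0.02 at 0 h. ATF3 was at 124, 140.3 and 121 CPM in Mock against 27.9, 26.5 and 28.2 CPM in siNT (−2.22, adjusted p = 6.2e-12, edgeR). ATF4, the transcription factor of this response, fell from 399 to 188 CPM (−1.08), DDIT3, its target CHOP, from 62.8 to 22.5 CPM (−1.48), and the asparagine and serine synthesis enzymes ASNS and PHGDH by 1.497 and 1.54 on the log2 scale. SLC7A11, the cystine transporter, was higher by 0.64 (adjusted p = 4.6e-05, edgeR). Of 13 genes of the unfolded protein response 11 were lower and 0 higher, with a median of −0.81. At 0 h 8 of them were already lower and 1 was higher, with a median of −0.27. HSPA5, the chaperone BiP, was at 2169.8, 2382 and 1815 CPM in Mock against 1071, 1079 and 1046 CPM in siNT (−0.99), and XBP1 and HERPUD1 fell from 208 to 73.9 CPM and from 230.0 to 78.3 CPM. Among 12 heat shock genes 9 were lower and 1 higher, with a median of −0.25, led by HSPA1A and HSPA1B (−0.75 and −0.70), a near-identical pair whose reads may be shared. Of 22 early transcription factors tested of 24, 11 were lower and 5 higher, against 24.9% and 25.2% of all genes tested. KLF4 fell from 155 to 37.0 CPM (−2.06) while KLF2, the factor of the quiescent endothelium, was higher, at 56.6, 67.5 and 56.9 CPM in Mock against 129, 143 and 114 CPM in siNT (1.09, adjusted p = 3.0e-09, edgeR). CEBPD, which amplifies cytokine transcription, fell from 47.6 to 8.499 CPM (−2.48).

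Most proliferation genes were lower. Of 43 S phase genes 35 were lower and 1 higher (median −0.45), and of 54 G2/M phase genes 43 were lower and 3 higher (median −0.50). At 0 h the numbers lower were 27 and 19, with medians of −0.25 and −0.10. CDC6, which licenses replication origins, was at 87.8, 95.8 and 84.6 CPM in Mock against 41.8, 45.7 and 47.2 CPM in siNT (−0.99), and KIF2C, a mitotic kinesin, at 83.4, 91.4 and 82.5 and 43.2, 40.9 and 50.5 CPM (−0.94). The members lower by over 2-fold were 1 of each list. CDCA7 was at 17.6, 17.9 and 16.4 CPM in Mock against 9.14, 8.24 and 7.53 CPM in siNT (−1.06, adjusted p = 2.6e-07, edgeR). NUSAP1, a spindle protein, was at 67.1, 71.8 and 24.4 CPM in Mock against 25.3, 18.6 and 37.1 CPM in siNT (−1.01, adjusted p = 0.013, edgeR), with overlapping libraries and replicate 3 lowest in Mock and highest in siNT, and it was not called with the replicate block in the 6 libraries or without any of 3 single libraries. RRM2, a ribonucleotide reductase subunit, had a log2 fold change of −0.74, and HMGB2 of −0.90. Of 22 replication-dependent histone genes tested of 72, 11 were lower and 1 higher, with a median of −0.54. Their messages lack a poly(A) tail and poly(A) libraries hold few of them.

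**Figure D3:**
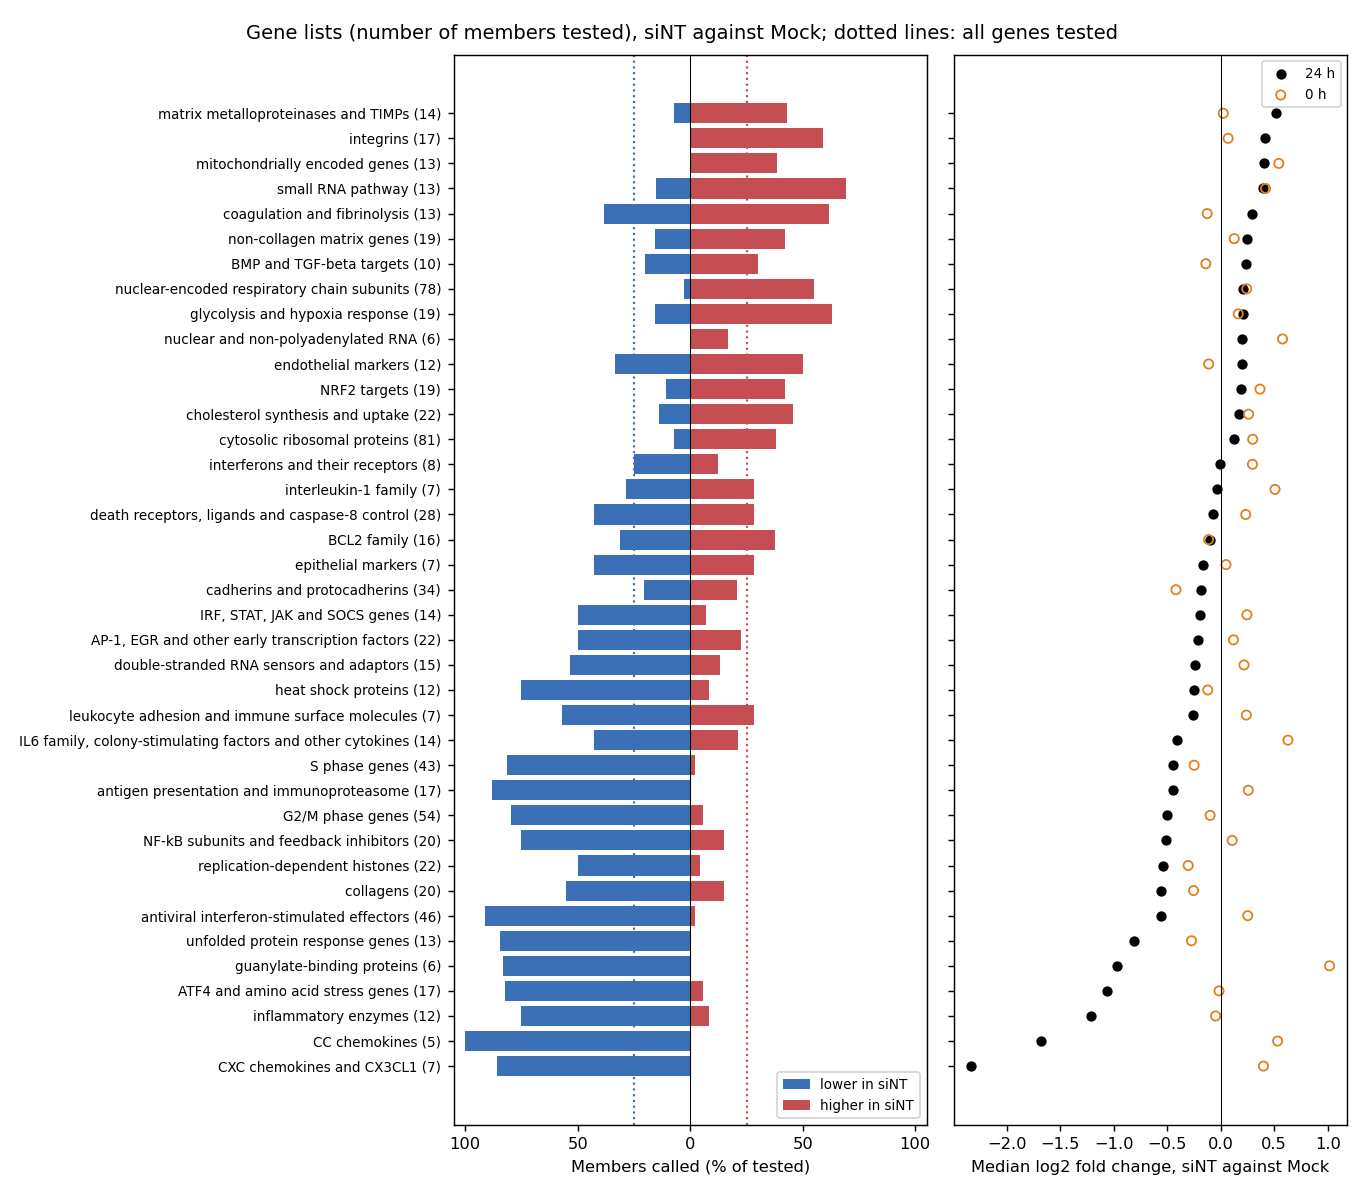
Left, share of tested members called lower (blue, to the left) and higher (red, to the right) in siNT at 24 h for the lists described that had at least 5 members tested, with the number tested in brackets and dotted lines at the shares over all genes (24.9% and 25.2%). Right, median log2 fold change of siNT against Mock at 24 h (filled) and 0 h (open); the chemokine lists lie lowest at 24 h and above 0 at 0 h.

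The 12 genes with the largest increases under the same naming rule were led by CHPF, GLI2 and PLAT. CHPF, which makes chondroitin chains, was at 4.97, 4.44 and 4.47 CPM in Mock against 28.7, 27.6 and 19.6 CPM in siNT (2.45, adjusted p = 2.3e-08, edgeR), and TMEM198 lies on the other strand. GLI2, a transcription factor of hedgehog signalling, was at 2.74, 2.73 and 2.65 CPM in Mock against 15.1, 16.5 and 12.0 CPM in siNT (2.42, adjusted p = 2.6e-10, edgeR). PLAT (ENSG00000104368.19, chromosome 8, 42174718 to 42207709), tissue plasminogen activator, which starts the lysis of clots, was at 99.3, 97.0 and 87.9 CPM in Mock against 415, 438 and 354 CPM in siNT, a log2 fold change of 2.09 with an SE of 0.09 (adjusted p = 1.3e-11, edgeR). For these genes every siNT library was over 3 times every Mock library. RAC2, a small GTPase, was at 21.96, 22.6 and 21.3 CPM in Mock against 92.9, 95.7 and 75.7 CPM in siNT (2.00), and RGS4, which limits G protein signalling, at 169, 199 and 133 and 631, 650.5 and 493 CPM (1.82). CD93, an endothelial surface lectin, was at 125, 101 and 100.0 CPM in Mock against 390.4, 374 and 322 CPM in siNT (1.73, adjusted p = 5.1e-11, edgeR). SMAD7, an inhibitory SMAD, was at 2.57, 2.50 and 2.81 CPM in Mock against 9.88, 9.03 and 8.11 CPM in siNT (1.78). SMAD6, the other inhibitory SMAD, was at 1.39, 1.59 and 1.61 CPM in Mock against 6.499, 6.92 and 6.27 CPM in siNT (2.10). Of the 10 genes of the BMP and TGF-beta list 3 were higher and 2 lower, against 25.2% and 24.9% of all genes tested, with a median of 0.23. A pair of genes without a symbol had larger increases and were named after their values were seen. ENSG00000258377 was at 1.87, 1.54 and 1.25 CPM in Mock against 48.8, 45.3 and 38.3 CPM in siNT (4.83, adjusted p = 1.3e-08, edgeR), and ENSG00000260342 at 0.514, 0.514 and 0.240 and 19.1, 27.8 and 1.24 CPM (5.24, adjusted p = 0.00027, edgeR), with replicate 3 far below the other siNT libraries. KRT15, BCYRN1, LAT2, SERPIND1 and NRROS completed the 12 genes with the largest increases, with log2 fold changes of 2.05, 2.04, 1.94, 1.89 and 1.74. Among the 12 largest decreases, CLEC2D, ADAP1, KLHDC7B and LRP1B had log2 fold changes of −2.65, −2.57, −2.49 and −2.42.

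All 13 genes of coagulation and fibrinolysis were called, 8 higher and 5 lower. Next to PLAT, THBD, the thrombin receptor thrombomodulin, was higher, at 88.7, 106 and 69.7 CPM in Mock against 211, 218 and 163 CPM in siNT (1.16, adjusted p = 1.0e-06, edgeR), as was PLAU, urokinase (0.72). F3, tissue factor, which starts coagulation, was at 8.63, 8.55 and 7.83 CPM in Mock against 2.12, 1.34 and 1.56 CPM in siNT (−2.32, adjusted p = 2.0e-08, edgeR). VWF, which binds platelets, fell from 9.79 to 4.62 CPM (−1.08). Of the 12 endothelial markers tested 6 were higher and 4 lower, against 25.2% and 24.9% of all genes tested. PECAM1, a junction protein, was at 78.7, 47.6 and 102 CPM in Mock against 214, 211 and 267 CPM in siNT (1.60, adjusted p = 1.7e-05, edgeR), a wide spread in Mock with no overlap. NOS3, the endothelial nitric oxide synthase, was at 161, 170.4 and 188 CPM in Mock against 358, 394 and 341 CPM in siNT (1.07), and KDR, a VEGF receptor, was higher by 1.05 (adjusted p = 0.0065, edgeR). Of 7 epithelial markers tested of 12, 2 were higher, KRT7 and KRT18 (0.46 and 0.34), and 3 lower, with a median of −0.17. MUC1 and NAPSA were lower by over 2-fold (−1.11 and −1.05), and NAPSA lost its call in 6 alternatives. The summed level of the list, in which abundant members weigh most, was 851 to 869 CPM in Mock against 1016 to 1060.0 CPM in siNT. Among the leukocyte and fibroblast markers, CD68, which many cells express, and ACTA2 were lower (−0.70 and −0.85), LYZ and TAGLN were not called, and the other 6 markers of each list did not pass the filter.

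Of 20 collagen genes tested of 44, 11 were lower and 3 higher, with a median of −0.56. COL17A1 was at 134, 125 and 131 CPM in Mock against 45.9, 42.7 and 48.4 CPM in siNT (−1.51, adjusted p = 6.2e-12, edgeR), and COL4A1, of the basement membrane, fell from 119 to 53.5 CPM (−1.15). Of 19 other matrix genes tested of 21, 8 were higher and 3 lower. LAMA5, a laminin chain of the vascular basement membrane, was at 259, 219 and 282 CPM in Mock against 726, 718 and 747 CPM in siNT (1.53, adjusted p = 3.0e-09, edgeR), and SPARC, a collagen chaperone, rose from 215 to 463 CPM (1.11). CCN1 fell from 906 to 325 CPM (−1.48) and THBS1, thrombospondin, from 1322 to 647 CPM (−1.03), while FN1 was not called (adjusted p = 0.29, edgeR). Of the integrins, the matrix receptors, 10 of 17 were higher and none lower (median 0.41, and 0.07 at 0 h). ITGB3 was at 55.9, 47.1 and 52.5 CPM in Mock against 124, 128 and 97.7 CPM in siNT (1.17), whereas at 0 h its log2 difference was −0.87 (adjusted p = 9.5e-08, edgeR). Of 14 matrix metalloproteinases and TIMPs 6 were higher and 1 lower (median 0.52), TIMP1 from 111 to 196 CPM among them. Of 34 cadherins and protocadherins 7 were higher and 7 lower, against 25.2% and 24.9% of all genes tested. CDH12 fell from 15.7 to 6.13 CPM (−1.36). The gamma protocadherins PCDHGC4, PCDHGA1 and PCDHGA7 share exons and had few counts, and their calls were lost in 4 to 9 alternatives each.

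In metabolic lists more genes were higher than lower, beside 25.2% higher and 24.9% lower over all genes tested. Of 78 nuclear-encoded respiratory chain subunits tested of 86, 43 were higher and 2 lower (median 0.21 at 24 h and 0.24 at 0 h). Of 13 mitochondrially encoded genes 5 were higher and none lower (median 0.40 at 24 h and 0.54 at 0 h). MT-ND4 was at 1371, 1538 and 1390.1 CPM in Mock against 2408, 2619.8 and 2957 CPM in siNT (0.89, adjusted p = 0.0083, edgeR). MT-CO1 was not called (adjusted p = 0.056, edgeR), but was with the replicate block in all 18 libraries (0.50, adjusted p = 0.028, edgeR). Of 19 genes of glycolysis and the hypoxia response 12 were higher and 3 lower, led by LDHA, lactate dehydrogenase, from 803 to 1535 CPM (0.94). Of 22 cholesterol genes 10 were higher and 3 lower, with MSMO1 at 0.84 and INSIG1 at −0.67, and of 19 NRF2 targets 8 were higher and 2 lower. Of 81 cytosolic ribosomal protein genes 31 were higher and 6 lower (median 0.13). At 0 h 65 of these were higher and 5 lower (median 0.30). Outside the metabolic lists, 1 of 6 nuclear and non-polyadenylated RNAs tested of 9 was higher and none lower, a share not above the 25.2% of all genes. The small RNA pathway, which loads and uses siRNA, had 9 of 13 genes higher and 2 lower (median 0.39 at 24 h and 0.42 at 0 h). DICER1, which cuts double-stranded RNA into small RNAs, was at 70.8, 62.4 and 62.3 CPM in Mock against 138, 141 and 121 CPM in siNT (1.03, adjusted p = 1.5e-09, edgeR), AGO2, the slicer protein, rose from 68.6 to 106 CPM (0.64), and DROSHA was lower (−0.44).

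To see how much of the difference stood before poly(I:C), siNT was also compared with Mock at 0 h, in 6 other libraries. There 4188 genes were higher (27.6%) and 3645 lower (24.0%). Of the 3825 genes higher at 24 h 2287 were also higher at 0 h, which is 59.8% of the former and 54.6% of the latter, and of the 3782 lower genes 2002 were lower at both times (52.9% and 54.9%). By the interaction test the difference itself changed with time, and was higher at 24 h for 2267 (14.9%) and lower for 2428 (16.0%). When libraries were scaled by their totals alone these numbers were 3072 and 1668. Of the 581 genes lower by over 2-fold at 24 h 286 were lower, 28 higher and 267 not called at 0 h, and of the 438 higher genes 234 were higher, 18 lower and 186 not called.

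In the inflammatory lists the difference was lower at 24 h than at 0 h for 5 of 7 CXC chemokine genes, 13 of 20 NF-κB genes, 34 of 46 interferon-stimulated effectors and 13 of 17 antigen presentation genes, against 16.0% of all genes. The 5 CXC genes include CXCL16, not called at 24 h, with means of 0.0672 CPM in Mock and 0.309 CPM in siNT at 0 h. They leave out CXCL10 and CXCL11, which were lower at 24 h but had no count in siNT at 0 h. IL6 was at 1.41 ± 0.251 CPM in Mock against 1.42 ± 0.571 CPM in siNT at 0 h (SD, n = 3), and its difference at 24 h minus that at 0 h was −3.28 (adjusted p = 2.8e-07, edgeR). CXCL8, CXCL2, CCL2, TRAF1, ICAM1 and BIRC3 were higher in siNT at 0 h, by 0.40, 0.77, 0.53, 1.31, 0.99 and 1.63 with edgeR adjusted p of at most 0.0055, and lower at 24 h. The change of the difference was −2.68 for CXCL8 (adjusted p = 2.2e-09, edgeR) and −2.48 for ICAM1 (adjusted p = 1.2e-10, edgeR). PTGS2 was lower at both times, with −1.59 at 0 h and −2.72 at 24 h. PLAT, GLI2, CD93 and KRT15 differed from Mock by 0.35, 0.62, 0.25 and −0.06 at 0 h, and the change of the difference was 1.73, 1.80, 1.48 and 2.11 (largest adjusted p = 6.3e-07, edgeR). CD93 and GLI2 were lower after poly(I:C) in Mock (24 h against 0 h, −1.24 and −2.61), and the same values in siNT were 0.24 and −0.81. CHPF, LAMA5 and COL17A1 had log2 differences of 2.07, 1.46 and −1.34 at 0 h, and a change with time of 0.39, 0.07 and −0.17 that was not called (smallest adjusted p = 0.13, edgeR).

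**Figure D4:**
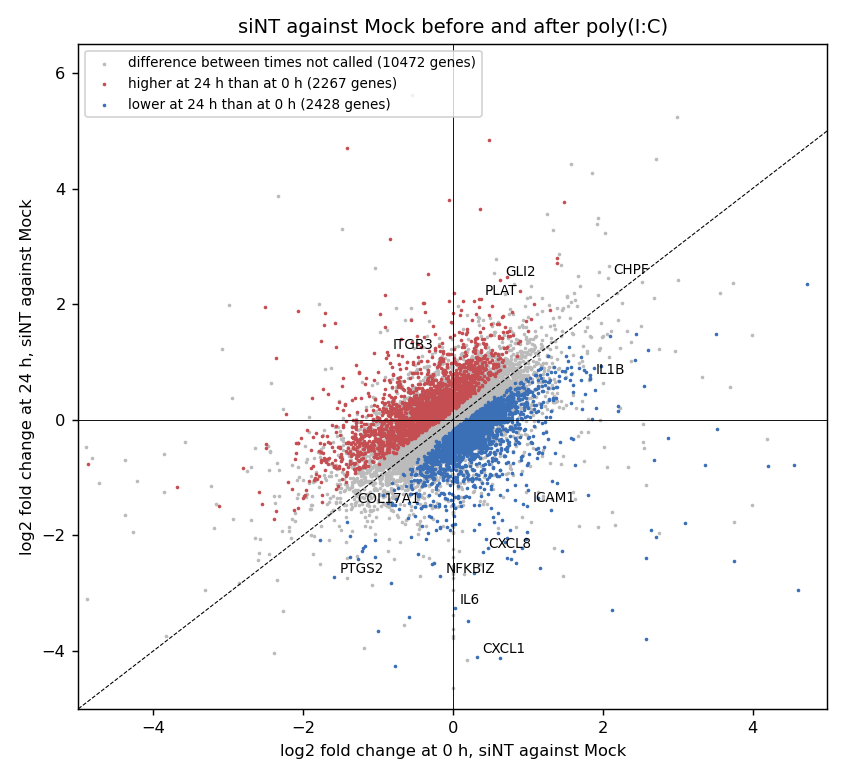
Log2 fold change of siNT against Mock at 24 h (vertical axis) against that at 0 h (horizontal axis), 1 point per gene, with a dashed line where both are equal; the time points share no library. The 2428 blue genes, such as CXCL1, IL6 and CXCL8, had a lower difference at 24 h and the 2267 red genes, such as PLAT and GLI2, a higher one, and 55 genes lie outside the axes.

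Genes that respond to poly(I:C) were then chosen from libraries outside the comparison, siELMO1 at 24 h against 0 h, as those that changed over 4-fold with adjusted p under 0.05. Of the 467 genes that rose, 297 (63.6%) were called lower in siNT at 24 h and 12 (2.57%) were higher, with a median log2 fold change of −0.80 and quartiles of −1.31 and −0.39. Their median at 0 h was 0.14. Of the 60 genes that fell over 4-fold, 20 (33.3%) were higher in siNT and none was lower, with a median of 0.84. Among the 6845 genes not called in siELMO1, 1423 (20.8%) were higher and 1304 (19.1%) lower, with a median of 0.01. The 12 exceptions among the 467 included IL1B, C3AR1, a complement receptor, from 8.04 to 22.5 CPM (1.48), LRG1 (1.53), CD69 (0.45), NFKBIE (0.59) and RNF213 (0.26), which were named after their values were seen. Of those named, IL1B, C3AR1, LRG1, CD69 and NFKBIE were already higher in siNT at 0 h, by 1.83, 3.52, 2.32, 1.77 and 1.19. RNF213 was not called there (0.20). The change of the difference with time was −2.03, −1.31 and −0.60 for C3AR1, CD69 and NFKBIE (largest adjusted p = 0.0084, edgeR). For LRG1 and RNF213 it was not called.

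**Figure D5:**
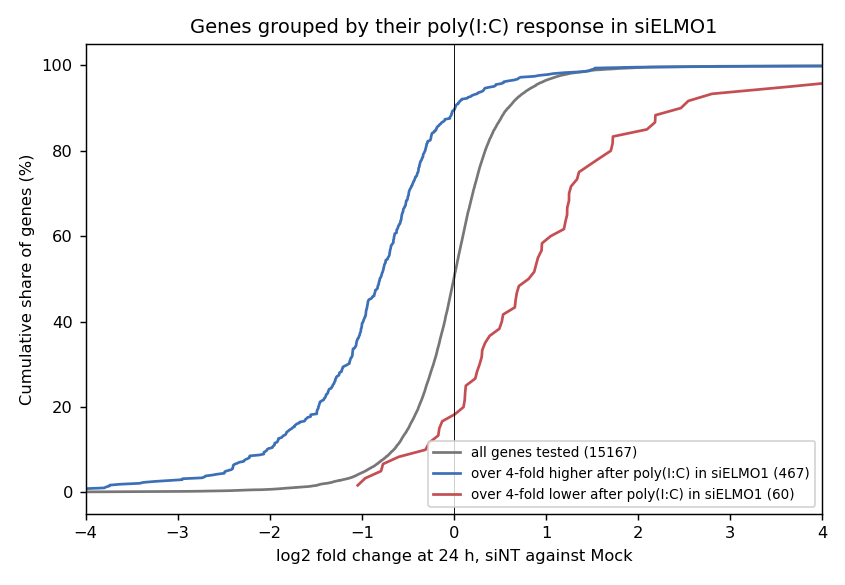
Cumulative share of genes (vertical axis, %) by their log2 fold change of siNT against Mock at 24 h (horizontal axis) for all 15167 genes (grey) and for genes that rose (blue, 467) or fell (red, 60) over 4-fold after poly(I:C) in siELMO1 cells. The blue curve lies left of the grey one with a median of −0.80 and the red curve right of it with a median of 0.84.

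The called genes were also described by abundance, kind and length. The share called rose with the level, from 9.14% higher and 9.07% lower under 1 CPM to 33.3% and 30.6% at 100 CPM or more. Among 1862 lncRNA genes 219 (11.8%) were higher and 394 (21.2%) lower, with a median of −0.13, and among 12386 protein-coding genes 3524 (28.5%) and 3288 (26.5%) with a median of 0.01. At 0 h 418 of the lncRNA genes were lower and 178 higher. The most abundant transcript had a median length of 3185 bases for lower genes, 3627 for higher genes and 3030.5 for all genes tested, and 2654 and 3072 for those past 2-fold.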

How the data were processed

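RNA from EA.hy926 cells was sequenced from poly(A) libraries made with a stranded kit. Per the study's methods and the submitters' processing notes, reads were aligned to GRCh38 with STAR and quantified with StringTie, and the authors deposited estimated counts per gene and per transcript, whole numbers that are not normalized. Versions, and whether the counting used strand, are not given in the sources used here. Gene counts were tested with edgeR 4.0.16 in R 4.3.3 (quasi-likelihood, TMM factors, 18 libraries, a mean for each of 6 groups) for genes with at least 100 counts in all and 1 CPM in any library, with Benjamini-Hochberg adjustment over 15167 genes. The biological coefficient of variation was 12.2%. The script was tested on simulated data. Interaction is siNT minus Mock at 24 h minus that at 0 h. Alternatives were other scaling and filters, fewer libraries, each library left out, replicate blocks, limma 3.58.1 (voom) and DESeq2 1.42.0.

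Replicate numbers come from the labels, which do not say what a number shares. At 24 h the deviations from the group mean correlated between Mock and siNT libraries of the same number (r = 0.288, 0.335 and 0.250 over 9644 genes). Other pairs ran from −0.278 to −0.0376. Deviations from a mean of 3 libraries sum to 0, so these negative values follow in part from the positive ones and add no separate support. By the same-number values at 24 h the numbers may pair the libraries, which 3 libraries a group cannot settle. At 0 h the same-number correlations were 0.135, 0.0733 and −0.00793, which do not show pairing there. In the limma fit over all 18 libraries the correlation within replicate number was 0.0472. The main test did not use the number, and blocked fits were run as alternatives. Transcript counts gave the shares of CFLAR and BCL2L1 and the most abundant transcript of each gene. Named genes were, per direction, the 12 with the largest fold change among symbol-bearing genes called in the test whose mean over the 6 libraries was 5 CPM or more and whose groups did not overlap, and of each list the genes the study examined, up to 4 called members with the largest change and 1 that was not called. Other list members were named after their values were seen. The comparison, lists and rules were chosen with earlier results of these data known. Some list members, and a list built on them, are not reported here.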

Additional observations from a re-analysis of the deposited data

Results flagged for a closer look

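The siNT minus Mock difference was not the same at 24 h as at 0 h for 29 of the 37 genes examined for it, by the interaction test, with 19 lower and 10 higher at 24 h. Most of the 37 were picked for a large difference at 24 h, so this number follows in part from the choice and is a description, beside 16.0% of all genes lower and 14.9% higher. Values are the log2 difference at 24 h minus that at 0 h. Among chemokine and cytokine genes the change was −4.43 for CXCL1, −3.17 for CXCL2, −2.68 for CXCL8, −2.21 for CCL2, −3.28 for IL6, −2.83 for CSF3 and −1.11 for IL1B (largest adjusted p = 9.5e-06, edgeR). For enzymes and transcriptional regulators of inflammation it was −4.76 for ACOD1, −1.13 for PTGS2, −2.54 for NFKBIZ and −2.23 for CEBPD (largest adjusted p = 0.038, edgeR). At 0 h ACOD1 had counts in 1 Mock library (0.0270 CPM) and 1 siNT library (0.0449 CPM), at or below what 3 counts give, so its change rests on a ratio near 0 counts and its size is not interpretable. For other genes with a large decrease it was −3.73 for ADAP1, −2.93 for CLEC2D, −2.21 for KLHDC7B and −1.15 for LRP1B (largest adjusted p = 0.0053, edgeR), and ADAP1 and KLHDC7B were under 0.5 CPM in all Mock and siNT libraries at 0 h. For genes of double-stranded RNA sensing and caspase-8 control it was −0.77 for TLR3, −0.46 for IRF7, −0.71 for CFLAR and −0.61 for CASP8 (largest adjusted p = 0.014, edgeR). IL1B was higher in siNT at both times and LRP1B and PTGS2 were lower at both, so for them the change is one of size, while CASP8 was higher in siNT at 0 h by 0.58 and not called at 24 h (−0.02). On the higher side it was 1.73 for PLAT, 0.60 for SERPIND1, 1.48 for CD93 and 2.11 for KRT15 (largest adjusted p = 0.024, edgeR). For signalling and survival genes it was 1.80 for GLI2, 1.13 for SMAD7, 1.51 for RGS4, 0.93 for RAC2, 0.71 for NRROS and 0.58 for BCL2L1 (largest adjusted p = 0.0074, edgeR). BCL2L1 was lower in siNT at both times, by less at 24 h.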

How the results depend on the processing

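Over 19 alternatives the number of genes higher in siNT at 24 h was 3267 to 4171 and the number lower 3265 to 4007. With 1 library left out these ran from 3291 to 3749 and from 3265 to 3639, and those past 2-fold from 389 to 483 and from 517 to 676. At 0 h, over 9 alternatives, 3435 to 4311 genes were higher and 3385 to 4225 lower, and the interaction counts ran from 1879 to 3072 and from 1668 to 2591. Library totals in place of TMM factors moved the share of interaction calls that were higher from 48.3% to 64.8% and the median of all genes for it from −0.0083 to 0.0761.

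Of 180 named genes that were called, 164 were called in every alternative, 16 lost the call in at least 1, and none reversed. Of 42 not called, 14 were called in at least 1. With the replicate block in the 6 libraries 3902 genes were higher and 3903 lower. Beside TLR3, IFI27 and MT-CO1, the block added CD40, FOSL1, GBP7, HSP90AB1 and MALAT1 (log2 fold changes of −0.26, −0.18, −0.85, −0.12 and 0.23) and lost NAPSA, NUSAP1, SMAD9, PCDHGA1 and PCDHGC4 (largest adjusted p = 0.094, edgeR), and it changed no other call among named genes. CCL3, GBP4 and TNFSF10 lost their calls in DESeq2. ELMO1 was called in 4 alternatives. With 3 libraries a group and counts near the floor, small differences in genes under 1 CPM were not detectable, and low-count calls such as TNF, IL33 and the protocadherins are less certain than those of abundant genes.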
